A study of Mus musculus with 3 samples.

Results

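The genes described here encode enzymes of fatty acid oxidation, proteins that build the peroxisome and acyl-CoA thioesterases, measured in kidneys of nephritic mice. The members were chosen by gene symbol: 53 listed genes, every gene whose symbol is Pex followed by a digit, and every gene whose symbol starts with Acot. Of the 10698 named genes with a row on the array, 60 were members, and 45 of them had a ratio on all 3 arrays and were tested. They were placed by function in 5 classes: 20 genes of mitochondrial oxidation, 13 of peroxisomal oxidation, 8 of fatty acid activation and binding, 11 of peroxisome assembly and 8 thioesterases. Another 12 listed genes (Acaa1a, Acaa1b, Acaa2, Acad10, Acad11, Acat1, Acsl1, Acsm1, Acsm2, Acsm5, Crot and Hadha) had no row under their symbol and were not analysed here.

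Each of 3 arrays with 2 colours carried Cy5-labelled total kidney RNA of 1 BALB/c mouse at day 11 after it received anti-GBM antibody, which causes an immune glomerulonephritis, beside Cy3-labelled kidney RNA pooled from 5 normal BALB/c mice. Mice 71, 72 and 73 of the labels are called mice 1, 2 and 3. The same pool was on every array, so a ratio was tested against 0, and neither the spread between control mice nor a dye bias entered the error. The sources used here give neither age nor sex.

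Values are the deposited log ratios after centring each array on its median. Since no source used here states the base of the logarithm, a value of 1 can stand for 2-fold (base 2), 2.72-fold (natural logarithm) or 10-fold (base 10). Values below 0 are read as lower in nephritic kidney, because the labels put nephritic RNA in the Cy5 channel; this makes the direction likely, not certain. A gene is called lower or higher where limma's moderated test gave an adjusted p under 0.05. Exact 0 filled 26.7 to 32.4% of the cells of an array and was treated as missing.

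Fatty acids enter cells, are bound by small carrier proteins and are coupled to coenzyme A by acyl-CoA synthetases. Carnitine palmitoyltransferases carry long-chain fatty acids into mitochondria, where a repeating cycle of dehydrogenation, hydration, dehydrogenation and thiolysis shortens them and passes electrons to the respiratory chain. Peroxisomes shorten very long and branched chains with oxidases that make hydrogen peroxide, which catalase removes, and import their enzymes through Pex proteins; thioesterases split acyl-CoA back into free acid and coenzyme A. In kidney the proximal tubule, rich in both organelles, takes much of its energy from this pathway, and the nuclear receptor Ppara, paired with Rxr receptors, is known to drive many of its genes.

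The binding element of Ppara with Rxr is a direct repeat of a hexamer with 1 base between the copies, and 5 members held a match in the 250 bases before their start. Every member with a match is shown, whatever its call. All 5 were called lower, as were 28 of the 39 tested members with a promoter entry. Of 7 motifs searched, matches are shown for this repeat only, with the matched bases in capitals. The sequences are RefSeq's for GRCm38.p6, written 5′ to 3′ on the strand of the gene.
Fabp1 (chr6:71199768-71199867, plus strand): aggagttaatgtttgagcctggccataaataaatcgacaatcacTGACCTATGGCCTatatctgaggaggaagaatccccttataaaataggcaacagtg
Cat (chr2:103485302-103485401, minus strand): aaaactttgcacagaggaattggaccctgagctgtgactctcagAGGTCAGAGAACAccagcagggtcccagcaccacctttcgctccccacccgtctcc
Echs1 (chr7:140116449-140116548, minus strand): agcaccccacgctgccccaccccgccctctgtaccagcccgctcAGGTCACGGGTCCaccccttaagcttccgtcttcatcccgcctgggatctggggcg
Etfa (chr9:55512265-55512364, minus strand): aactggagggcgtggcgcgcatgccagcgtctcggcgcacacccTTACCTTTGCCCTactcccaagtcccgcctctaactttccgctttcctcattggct
Acot12 (matched bases only): TGACCTCTCACCT

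The motif searched was AGGTCA, any 1 base and AGGTCA again, on both strands with up to 2 mismatches. Fabp1 and Acot12 each differed from it at 1 base and lay 67 to 55 and 110 to 98 bases before the start, on the strand opposite to the gene. Cat, Echs1 and Etfa each differed at 2 bases. A match stood in 5 of 55 member windows (9.09%, from 50 members with a promoter entry) and in 1063 of all 32851 windows (3.24%). Of the 39 tested members with an entry, 28 were called lower, so a lower call was common among members with no match as well. The single hexamer AGGTCA, contained in the repeat, stood in 14.5% of member windows and 14.0% of all windows, GCGCA followed by TGCGC (up to 1 mismatch) in 9.09 and 5.2%, CAAAGTCCA (up to 1 mismatch) in 1.82 and 7.05%, CCAAT in 40.0 and 33.8%, GGGCGG in 61.8 and 32.7% and CACGTG in 3.64 and 6.02%. A match describes these letters and does not show binding.

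Lower values prevailed across the members. Of the 45 tested, 31 were called lower, 4 higher and 10 neither, and the median was -0.38, with medians of -0.44, -0.35 and -0.36 in mice 1, 2 and 3. Of all 8449 features tested, 22.3% were called lower and 20.8% higher (43.1% in either direction), with a median of -0.0081. If the ratio ran the other way, the same values would be 31 members higher and 4 lower, with a member median of 0.38 and with peroxisomal oxidation as the class with the highest median, at 0.65. A ratio below 0 in all mice was found for 37 members, against 35.4% of all features, and a ratio above 0 in all mice for 5, against 33.3%. The lowest member was Acsm3, a medium-chain acyl-CoA synthetase of the mitochondrion, at -1.29, which would be 2.45-fold with base 2, 3.65-fold with the natural logarithm and 19.7-fold with base 10. Some members departed from the common direction: the synthetases Acsl4 and Acsl5 and the thioesterases Acot1 and Acot10. Others had means close to 0, such as Cpt1a, Acox3, Pex5 and Pex11a, though Cpt1a and Acox3 were below 0 in all mice.

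**Figure D1:**
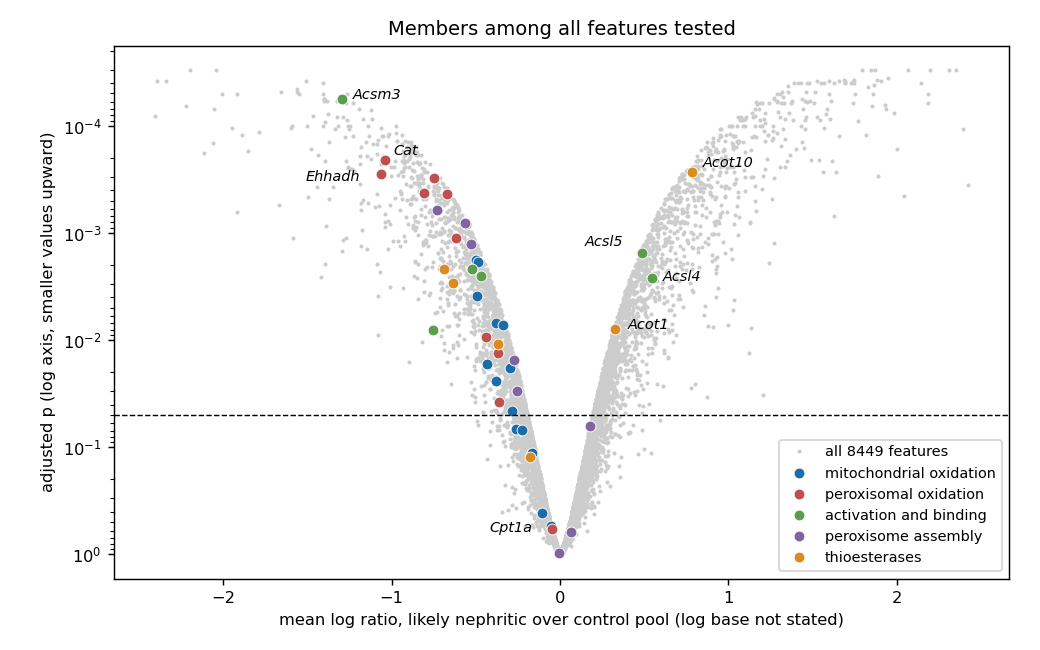
Mean log ratio of 3 mice (x axis, deposited log unit) against limma's adjusted p (y axis, log scale, smaller values upward) for all 8449 features in grey and the 45 members coloured by class; the dashed line is an adjusted p of 0.05. Most members lie on the left above the line, and the 4 called higher are Acot10, Acsl4, Acsl5 and Acot1.

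Peroxisomal oxidation was the class with the lowest median. Of its 10 tested members, 9 were called lower and 0 higher (90 and 0%), against 22.3 and 20.8% of all features. All 10 were below 0 in all mice, as were 35.4% of all features. Its median was -0.65 and stood at -0.70, -0.63 and -0.69 in mice 1, 2 and 3. Ehhadh, the bifunctional enzyme for the hydration and second dehydrogenation steps, was at -0.94, -0.92 and -1.32, with a mean of -1.06 ± 0.225 (SD, n = 3; adjusted p = 0.000283). Mouse 3 was the lowest and the other mice lay close together. Catalase, Cat, which breaks down the hydrogen peroxide made by the oxidases, was at -1.16, -0.83 and -1.13, with a mean of -1.04 ± 0.18 (adjusted p = 0.000209), and here mouse 2 stood closest to 0.

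Acox2, the oxidase that starts oxidation of branched chains and bile acid precursors, was at -0.71, -0.70 and -0.84 in mice 1, 2 and 3 (mean -0.75 ± 0.076, adjusted p = 0.000309). Its relative Acox3, which also acts on branched chains, was at -0.053, -0.019 and -0.072 and was not called (adjusted p = 0.583). Within each mouse Acox3 stood above Acox2, by 0.65, 0.68 and 0.76. This and the other differences between members within a mouse are descriptions and were not tested. Hacl1, a lyase of alpha-oxidation, was at -0.67, -0.61 and -0.73 (mean -0.67 ± 0.0616, adjusted p = 0.000433), with little spread between the mice.

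Ech1, a dienoyl-CoA isomerase found in peroxisomes and mitochondria, was at -0.81, -0.65 and -0.97 (mean -0.81 ± 0.157, adjusted p = 0.000423). Decr2, the peroxisomal dienoyl-CoA reductase, was at -0.46, -0.74 and -0.65 (mean -0.62 ± 0.143, adjusted p = 0.00111). Decr1, its mitochondrial counterpart, had a mean of -0.11 with mouse 1 above 0 at 0.14 and was not called (adjusted p = 0.407), whereas without mouse 1 it was called lower (-0.23, limma adjusted p = 0.0346). The other called members of the class were the membrane transporter Abcd3 at -0.44, the phytanic acid hydroxylase Phyh at -0.37 and the isomerase Eci2 at -0.36. In all of them mouse 1 was the lowest, at -0.69, -0.57 and -0.71, and mice 2 and 3 lay between -0.18 and -0.32. The call of Eci2 was lost without mouse 1 (-0.19, limma adjusted p = 0.0544).

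In mitochondrial oxidation 9 of 14 tested members were called lower and 0 higher (64.3 and 0%), against 22.3 and 20.8% of all features. Of the 14, 13 were below 0 in all mice, against 35.4% of all features. The class median was -0.32, with -0.42, -0.24 and -0.31 in mice 1, 2 and 3. Etfdh, which hands electrons from fatty acid dehydrogenation to the respiratory chain, was the lowest at -0.40, -0.57 and -0.53 (mean -0.50 ± 0.0911, SD, n = 3; adjusted p = 0.00178). Etfa, a subunit of the electron carrier that feeds Etfdh, was at -0.44, -0.098 and -0.60 (mean -0.38 ± 0.256, adjusted p = 0.024), with mouse 2 near 0. Hadhb, the thiolase subunit of the trifunctional protein, was at -0.53, -0.39 and -0.54 (mean -0.49 ± 0.0827, adjusted p = 0.00185). All 3 mice thus lay well below 0 for Etfdh and Hadhb and less evenly so for Etfa.

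Genes of the carnitine shuttle gave unlike values. Cpt1b, the muscle form of the outer membrane palmitoyltransferase, was at -0.64, -0.53 and -0.30 (mean -0.49 ± 0.171, adjusted p = 0.00385). Cpt2, the inner membrane enzyme, was at -0.47, -0.43 and -0.24 (mean -0.38 ± 0.122, adjusted p = 0.00689). Cpt1a, the form prevailing in kidney and liver and the step at which entry into mitochondria is controlled, was at -0.06, -0.06 and -0.036 (mean -0.052 ± 0.0135, adjusted p = 0.55) and was not called. Within each mouse Cpt1a stood above Cpt2, by 0.41, 0.37 and 0.21. Crat, which moves acetyl groups onto carnitine, had a mean of -0.34 and was called lower, whereas Slc25a20, the carrier that exchanges acylcarnitine for carnitine, had a mean of -0.0013 ± 0.0737 (adjusted p = 0.989).

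Among the acyl-CoA dehydrogenases, which open each round of the cycle, Acads for short chains (-0.30) and Acadsb for short branched chains (-0.29) were called lower. Acadvl, for very long chains, was at -0.52, -0.11 and -0.15 (mean -0.26 ± 0.228) and missed the threshold (adjusted p = 0.0676), with mouse 1 far below the others; without mouse 1 its mean was -0.13 (limma adjusted p = 0.18). Acad9, which also takes part in assembly of respiratory complex I, was at -0.23 and was not called, although without mouse 1 it was called lower (-0.33, limma adjusted p = 0.00525). Echs1, the short-chain hydratase, was at -0.15, -0.46 and -0.70 (mean -0.43 ± 0.275, adjusted p = 0.0169), with all mice apart. The isomerase Eci1 had a mean of -0.16 and was not called. The calls of Echs1, Etfa, Crat, Acads and Acadsb were lost without mouse 3, where Echs1 was at -0.30 and Etfa at -0.27, and Acadsb also lost its call without mouse 1 (-0.20), without centring (-0.27) and with ratios on 2 arrays accepted.

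Class medians of peroxisomal and mitochondrial oxidation can be set side by side within a mouse. The peroxisomal minus the mitochondrial median was -0.28 in mouse 1, -0.392 in mouse 2 and -0.385 in mouse 3, a mean difference of -0.35 ± 0.0627 (SD, n = 3). With 14 and 10 genes in the classes and 1 shared control pool this is a description, and the difference was not tested.

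**Figure D2:**
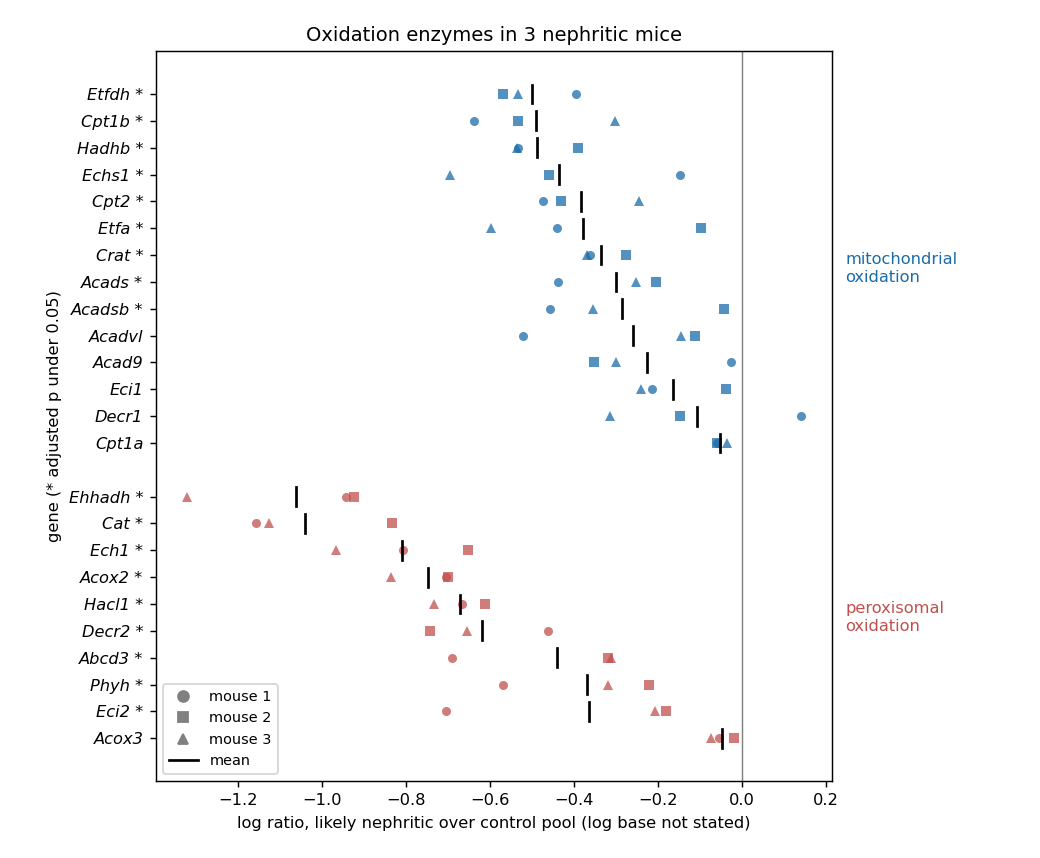
Log ratios (x axis, deposited log unit) of 14 mitochondrial and 10 peroxisomal oxidation genes (y axis), with a circle, square and triangle for mice 1, 2 and 3 and a black bar for the mean; an asterisk marks an adjusted p under 0.05. Ehhadh and Cat have means of -1.06 and -1.04, whereas Cpt1a and Acox3 sit next to 0, at -0.052 and -0.048.

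In the activation and binding class 5 of 7 tested members were called lower and 2 higher, and none missed the threshold. These were 71.4 and 28.6%, against 22.3 and 20.8% of all features. Acsm3 was at -1.20, -1.33 and -1.36 (mean -1.29 ± 0.0813, SD, n = 3; adjusted p = 5.64e-05), with the mice close together. The long-chain synthetases went apart. Acsl3, found on the endoplasmic reticulum and lipid droplets, was at -0.54, -0.59 and -0.53 (mean -0.56 ± 0.0336, adjusted p = 0.000819). Acsl4, which prefers arachidonic acid, was at 0.35, 0.70 and 0.59 (mean 0.54 ± 0.176, adjusted p = 0.00263), and its 2 rows had means of 0.63 and 0.46. Acsl5, located on mitochondria and endoplasmic reticulum, was at 0.51, 0.43 and 0.53 (mean 0.49 ± 0.056, adjusted p = 0.00154). The values of Acsl3 did not overlap with those of Acsl4 or Acsl5, and Acsl5 stood above Acsl3 by 1.05, 1.02 and 1.07 in mice 1, 2 and 3.

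Fabp1, the liver-type fatty acid binding protein that also occurs in proximal tubules, showed the widest spread of the members. It was at -0.24 in mouse 1 and at -1.05 and -0.97 in mice 2 and 3 (mean -0.75 ± 0.449, adjusted p = 0.00811). Both of its rows had mouse 1 closest to 0, at -0.039 and -0.43, and mice 2 and 3 between -0.76 and -1.19. Fabp3, the heart-type protein, had a mean of -0.47 and was called lower. Acss2, which makes acetyl-CoA from acetate in the cytosol, was at -0.67, -0.52 and -0.39 (mean -0.53 ± 0.14, adjusted p = 0.00215).

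Peroxisome assembly genes were in part called lower and in part not called. Of 8 tested, 5 were called lower (62.5%), 0 higher and 3 neither. Over all features 22.3% were called lower and 20.8% higher. The class median was -0.26, with medians of -0.32, -0.19 and -0.31 in mice 1, 2 and 3. Pex3, the membrane anchor on which membrane proteins are delivered, was at -0.56, -0.80 and -0.84 (mean -0.73 ± 0.153, SD, n = 3; adjusted p = 0.000613), from 1 of its 2 rows, the other being listed at 0 on all arrays. Pex19, the chaperone that docks on Pex3, was at 0.18, 0.17 and 0.18 (mean 0.18 ± 0.00528) and missed the threshold with centring (adjusted p = 0.0637), and it was called higher without centring. A second Pex19 row, with ratios for 2 mice, gave -0.53 in mouse 1 and 0.36 in mouse 2, so the rows disagree.

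The receptors that bring enzymes into the organelle differed as well. Pex7, the receptor for the signal at the start of proteins, was at -0.52, -0.61 and -0.57 (mean -0.56 ± 0.0472, adjusted p = 0.000808). Pex5, the receptor for the signal at the end of proteins, was at 0.13, 0.25 and -0.19 (mean 0.064 ± 0.226, adjusted p = 0.621), and its 2 rows had means of -0.0902 and 0.22, on opposite sides of 0. In each mouse Pex5 stood above Pex7, by 0.65, 0.86 and 0.38. Pex6, part of the ATPase that recycles Pex5, was at -0.52, -0.60 and -0.45 (mean -0.53 ± 0.0751, adjusted p = 0.00126).

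Pex13, a component of the docking site, was at -0.27, -0.26 and -0.28 (mean -0.27 ± 0.0136, adjusted p = 0.0152). Of the proteins that enlarge and divide peroxisomes, Pex11g was called lower at -0.30, -0.13 and -0.33 (mean -0.26 ± 0.111, adjusted p = 0.0297), with 2 rows at -0.26 and -0.25. Pex11a was at -0.34 in mouse 1 and at 0.20 and 0.12 in mice 2 and 3, with a mean of -0.0048. Without mouse 3 the calls of Pex13 and Pex11g were lost (-0.26 and -0.22), and that of Pex13 was also lost without mouse 2 (-0.28).

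Thioesterases were called in both directions. Of 6 tested, 3 were called lower and 2 higher (50 and 33.3%), against 22.3 and 20.8% of all features. The class median was -0.27, with medians of -0.099, -0.37 and -0.34 in mice 1, 2 and 3. Acot13, a small thioesterase associated with mitochondria, was at -0.40, -0.88 and -0.80 (mean -0.69 ± 0.258, SD, n = 3; adjusted p = 0.00219). Acot12, which hydrolyses acetyl-CoA in the cytosol, was at -0.37, -0.68 and -0.87 (mean -0.64 ± 0.253, adjusted p = 0.00291). Acot8, the peroxisomal thioesterase with a wide substrate range, was at -0.19, -0.44 and -0.47 (mean -0.36 ± 0.152, adjusted p = 0.0108). In all 3 genes mouse 1 was the closest to 0.

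Acot10, a mitochondrial thioesterase, was at 0.69, 0.83 and 0.83 (mean 0.78 ± 0.0826, adjusted p = 0.000273), the highest mean of the members. Acot10 is a close copy of Acot9, whose own row was listed at 0 on all arrays, so signal from the 2 genes may not be separated. Acot1, a cytosolic long-chain thioesterase nearly identical to Acot2, was at 0.39, 0.31 and 0.29 (mean 0.33 ± 0.0512, adjusted p = 0.00794), and the same reservation holds. Acot7, abundant in brain, had a mean of -0.17 and was not called, but it was called lower without mouse 1 (-0.26, limma adjusted p = 0.0186) and stood at -0.11 without mouse 2. Without mouse 3 the calls of Acot1 (0.35, limma adjusted p = 0.0515) and Acot8 (-0.31, limma adjusted p = 0.0875) were lost.

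**Figure D3:**
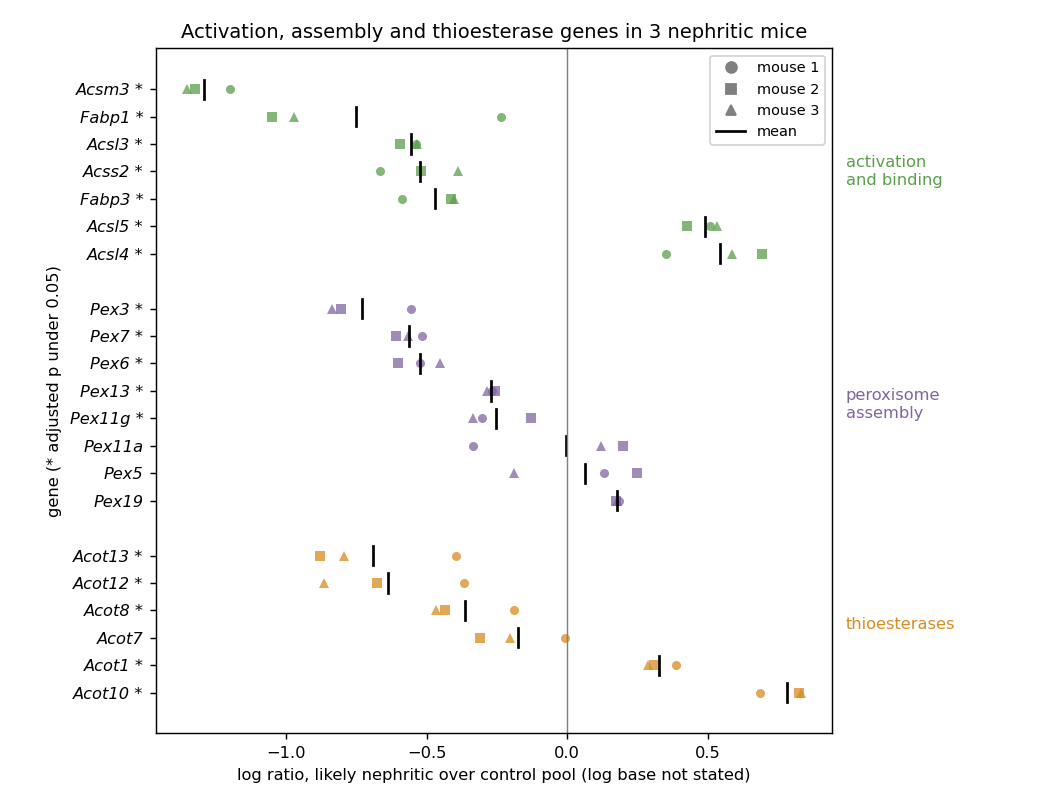
Log ratios (x axis, deposited log unit) of 7 activation and binding genes, 8 peroxisome assembly genes and 6 thioesterases (y axis), with a circle, square and triangle for mice 1, 2 and 3 and a black bar for the mean; an asterisk marks an adjusted p under 0.05. Acsl4, Acsl5, Acot1 and Acot10 lie right of 0 in all mice, and Fabp1 of mouse 1, at -0.24, lies apart from mice 2 and 3.

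No mouse was the most affected throughout. Among the 31 members called lower, the lowest value was in mouse 1 for 10, in mouse 2 for 7 and in mouse 3 for 14. In peroxisomal oxidation mouse 2 was the closest to 0 for 7 of 9 called members, and in the thioesterases mouse 1 was so for 3 of 3.

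The remaining 15 members with a row lacked a ratio on at least 1 array and were not tested. Of these, 12 had ratios on 1 or 2 arrays, 11 with a mean below 0 and 1 above. Of the 12, 8 were measured on 1 array only, 7 of them in mouse 1. The share below 0 among all partly measured features is not given here. Acadm, the medium-chain dehydrogenase, was measured in mouse 1 at -0.90, and Acadl, the long-chain form, in the same mouse at -0.073. Hadh, for the second dehydrogenation of short chains, was at -0.64 and -0.39 in mice 1 and 2, and the racemase Amacr was at -0.67 and -1.05 in mice 1 and 3. Abcd2, a peroxisomal transporter of very long chains, was the member above 0, at 0.19 and 0.36 in mice 1 and 2. Mouse 1 alone gave a ratio for Acss1 (-0.34), Echdc2 (-0.66), Etfb (-0.34), Hao2 (-0.57) and Acot11 (-0.41), mouse 3 alone for Acad8 (-0.34), and mice 1 and 2 for Pex2 (-0.35 and -0.16). Pex14, Pex5l and Acot9 were listed at 0 on all arrays.

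Other genes of the pathway, in 6 lists chosen by function, were lower in 29 of 56 tested cases and higher in 4. Over all features 22.3 and 20.8% were so called. Of 12 tested transcriptional regulators of fatty acid oxidation, 9 were called lower and 0 higher, with a median of -0.35. Ppara was at -1.05, -0.65 and -1.02 (mean -0.91 ± 0.221, SD, n = 3; adjusted p = 0.00049), the lowest of the list, with mouse 2 closest to 0. Lpin1, a phosphatase that also acts as a coactivator of Ppara, was at -0.78 ± 0.127 (adjusted p = 0.000373). Its partner Ppargc1a, a coactivator of mitochondrial genes, was at -0.76, -0.37 and -0.21 (mean -0.45 ± 0.279, adjusted p = 0.0156), and its mean without mouse 1 was -0.29, still called lower. The mitochondrial deacetylase Sirt3 was at -0.41 and the receptor partner Rxra at -0.29, both called lower, although Rxra was not called without mouse 3 and was at -0.14 with exact 0 kept as a ratio. Rxrb, another partner, was called lower at -0.45, but its rows disagree. Of its complete rows, 1 was at -0.73 (limma adjusted p = 0.00817 when rows were tested singly) and the other, with less spread between the mice, at -0.16 (limma adjusted p = 0.212), while a further row had ratios above 0 in mice 2 and 3, at 0.17 and 0.15. With that row included the mean of Rxrb was -0.29, and with exact 0 kept it was -0.25. Pparg, the form of fat tissue, was at -0.004 and was not called.

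Of 18 other peroxisomal enzymes and membrane proteins, 9 were called lower and 1 higher, with a median of -0.26. These were 50 and 5.56%, against 22.3 and 20.8% of all features. Baat, which joins bile acids or fatty acids to amino acids, was the lowest at -1.11, -1.98 and -1.39 (mean -1.49 ± 0.445, adjusted p = 0.000462). The coenzyme A and nucleotide hydrolases Nudt7 and Nudt12 were at -0.80 and -0.51, and the peroxisomal protease Lonp2 was at -0.47, all called lower. Hsd17b4, the second bifunctional enzyme of peroxisomal oxidation, was at -0.34, -0.045 and -0.30 (mean -0.23 ± 0.158) and was not called (adjusted p = 0.062), whereas without mouse 2 it was. Xdh, xanthine dehydrogenase, was the gene called higher, at 0.25, a call that was lost without mouse 1 (0.18) and without mouse 3 (0.26).

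On the supply side 3 of 9 uptake and transport genes were called lower and 0 higher (33.3 and 0%), against 22.3 and 20.8% of all features. The fatty acid receptor Cd36 was at -0.66, -0.91 and -1.08 (mean -0.88 ± 0.208, adjusted p = 0.000483), lipoprotein lipase, Lpl, at -1.19 ± 0.297 (adjusted p = 0.000351) and the carnitine importer Slc22a5 at -0.61 ± 0.331 (adjusted p = 0.00727). Mlycd, which removes the malonyl-CoA that inhibits Cpt1a, was the 1 tested gene of the ketone body and acetyl-CoA list, at -0.56, and was called lower.

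Of 8 tested genes in a list of Ppara targets that left out the members, 3 were called lower and 1 higher. These were 37.5 and 12.5%, against 22.3 and 20.8% of all features. The fatty acid hydroxylase Cyp4a10 was at -0.65 and the pantetheinase Vnn1 at -0.71, and Cyp4a12b, whose call was lost without mouse 3, was at -0.28. Plin2, the coat protein of lipid droplets, was at 0.75, 1.02 and 0.70 (mean 0.82 ± 0.173, adjusted p = 0.000465). Of 8 fatty acid synthesis genes, 4 were called lower and 2 higher (50 and 25%). Fasn and Me1 were at -0.42 and -0.47, and the desaturases Scd2 and Fads1 were at 1.05 and 0.40, all 4 called.

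**Figure D4:**
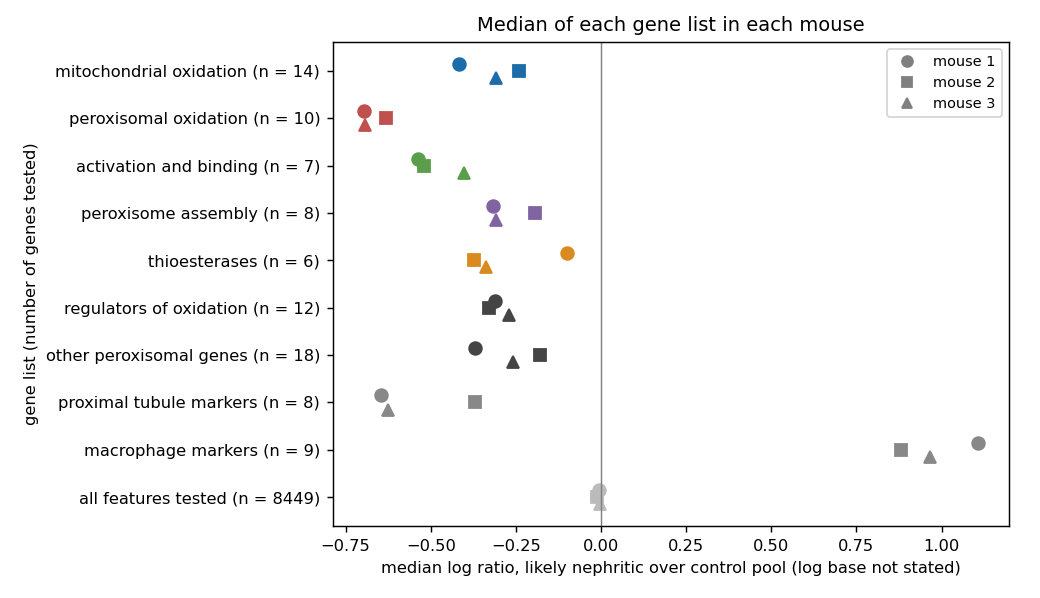
Median log ratio (x axis, deposited log unit) of each gene list (y axis, with the number of genes tested), with a circle, square and triangle for mice 1, 2 and 3. Medians of the 5 member classes and the regulators lie below 0 in every mouse, as do those of the proximal tubule markers, while macrophage markers lie between 0.88 and 1.11 and all features tested lie close to 0.

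The RNA was of whole kidney, so fewer cells of a type and less RNA per cell cannot be told apart. Of 16 proximal tubule markers, 12 had a row and 8 were tested. Of these 8, 6 were called lower and 0 higher (75 and 0%), against 22.3 and 20.8% of all features. The 8 markers had a median of -0.54, at -0.65, -0.37 and -0.63 in mice 1, 2 and 3. Among them the phosphate transporter Slc34a1 was at -1.22 and the endocytic receptor Cubn at -0.88 (-0.71 and -0.59 with exact 0 kept as a ratio). Kap and Slc7a13 were listed at 0 on all arrays. Lower calls also occurred elsewhere. Of 11 tested markers of other nephron segments, 4 were called lower and 2 higher (36.4 and 18.2%), with a median of -0.09. Slc4a1 was at -1.23 (-0.77 with exact 0 kept), Slc12a1 at -0.87, Aqp3 at -0.705 and Slc26a4 at -0.44. Scnn1g was at 0.65 (0.33 with exact 0 kept) and Aqp2 at 0.29. The podocyte gene Nphs1 was called lower at -0.42, a call lost without mouse 2 (-0.26). All 9 tested macrophage markers were called higher, with a median of 1.06. That list includes the pan-leukocyte gene Ptprc, which was at 1.33. A second Ptprc row, with ratios for 2 mice, was at -0.61 in mouse 1 and -0.72 in mouse 3, so the rows disagree; the mean was 0.64 with that row included and 0.30 with exact 0 kept.

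Markers of other tissues and cell types were measured as well. Of 7 markers of fat tissue, 4 had a row and 1, Ucp1, was tested, at -0.11 and not called. Of 6 tested endothelium markers 0 were called lower and 1 higher. Of 6 tested neutrophil markers 1 was called lower and 2 higher. The 2 tested lymphocyte markers were called higher. Of 2 erythroid markers 1 was called higher, and the 1 tested adrenal cortex marker was not called. Of these, Eng, S100a8, Ly6g and Alas2 lost their calls with exact 0 kept. Of 8 striated muscle markers 5 were tested, 2 called lower and 0 higher (40 and 0%), with a median of -0.073. Over all features 22.3 and 20.8% were called lower and higher. The myosin heavy chain Myh1 was at -1.52, -2.14 and -2.18 (mean -1.95 ± 0.368, SD, n = 3; adjusted p = 0.000104), further below 0 than any member, and the troponin Tnnt3 was at -0.52 (-0.25 with exact 0 kept). Myh4 and Mylpf lay near 0, Mb had rows at 0.29 and -0.43, and Myh2 was listed at 0 on all arrays. Of 7 liver markers 3 were tested, 2 called lower and 1 higher (66.7 and 33.3%), with a median of -0.64. Albumin, Alb, was at -2.58, -1.86 and -1.75 (mean -2.06 ± 0.449, adjusted p = 0.000144), Apoa2 at -0.64 and the fibrinogen chain Fga, the gene called higher, at 0.49, while Serpina1a was listed at 0 on all arrays. The members Cpt1b and Fabp3, named above for muscle and heart, were at -0.49 and -0.47, and Fabp1 at -0.75. Baat, abundant in liver, was at -1.49. The part of these shifts in cell markers in the members' values was not tested.

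The number of arrays limits the precision of every value. With exact 0 values kept as ratios, 8 of 60 members were called lower and 3 higher, against 3.3 and 4.15% of 13241 features: Acox2, Hacl1, Acsm3, Acsl3, Crat, Pex7, Pex6 and Pex13 were lower and Acsl5, Acot1 and Acot10 higher. Most members that lost their call there kept their value apart from the centring, Cat at -1.02 and Ehhadh at -1.05 among them, while Pex3 moved to -0.36. For Cat the SD was 0.18 in both settings, while its limma adjusted p went from 0.000209 to 0.0508. The features added with exact 0 kept, many listed at 0 on all arrays, entered the same fit. Their part in the lost calls was not tested. Of the other pathway genes 5 of 80 were then called lower. Ppara, Ppargc1a, Rxrb, Sirt3, Cd36, Lpl, Slc22a5, Baat, Nudt7, Lonp2, Cyp4a10, Cyp4a12b, Vnn1, Plin2, Fasn, Me1, Fads1 and Xdh, among others, lost their calls. So did the markers Cubn, Ptprc, Myh1, Alb, Apoa2 and Fga. In the macrophage list Adgre1, Cd68, Csf1r, C1qb and Fcgr1 did so too, and in the proximal tubule list Slc22a6 and Slc22a8. The calls of Slc4a1, Slc12a1, Aqp3, Slc26a4, Scnn1g, Aqp2 and Nphs1 were lost as well.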

How the data were processed

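The deposited values were log ratios of 2 channels per array, 16281 rows and 3 columns, a score whose log base, direction, scanner and normalization no source used here gives. Per the labels, Cy5 marked nephritic RNA and Cy3 the control pool, and dyes were not swapped. Each array's label names another mouse, so arrays were counted as animals; p-values measure the spread between them. Columns had medians of 0 over all rows and of 0.0151, 0.016 and 0.0171 over values other than 0. Of the rows, 13738 had 1 gene symbol, updated by gene identifier from RefSeq's GRCm38.p6 table (13694 matched), 52 had several and 2491 had none.

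Exact 0 was set to missing, each array was centred on its median, complete rows of a gene were averaged (4 tested members had 2 such rows), and 8449 features measured on all 3 arrays were fitted in R 4.3.3 with limma 3.58.1 (lmFit and eBayes, which gave 4.85 prior degrees of freedom and a prior SD of 0.134), two-sided against 0, with Benjamini-Hochberg adjustment over all features at 0.05. The step was also run on simulated ratios with known changes and independent noise on each array. That run had no shared control pool or dye bias, so it cannot show how these affect the calls. Members, classes and lists were chosen with earlier results of these data known. Values by mouse are given for up to 6 called members per class with the largest means in size, called members against their class and a fixed set of well known members; of other lists, up to 4 genes with the smallest p and a fixed set. Other members were named with their means, and Xdh, Pparg and the markers were named once their values were known. The alternatives tried were no centring, scaled arrays, rows tested singly, ratios on 2 arrays, exact 0 kept, a robust prior, an unmoderated test and each mouse left out.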

Additional observations from a re-analysis of the deposited data

How the results depend on the processing

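Without centring, with scaled arrays, with rows tested singly, with ratios on at least 2 arrays and with a robust prior, the count of members called lower lay between 30 and 32 and that of members called higher between 4 and 5. Leaving out a mouse gave 23 to 32 lower and 3 to 4 higher, with the smallest counts without mouse 3. Of the other pathway genes 24 to 30 were then lower. The shares over all features moved as well. Without mouse 1, 2 and 3, 25.8, 15.5 and 13.1% of 8449 features were called lower and 23.9, 16.0 and 13.0% higher. Keeping exact 0 as a ratio lowered the members called lower from 31 to 8 and the other pathway genes called lower from 29 to 5; it added 4792 features, many listed at 0 on all arrays. In that setting the median of peroxisomal oxidation was -0.56 and that of peroxisome assembly -0.16. Leaving out a mouse moved the median of peroxisomal oxidation to between -0.69 and -0.62. An unmoderated one-sample test, with 2 residual degrees of freedom, called 0 members lower, 0 higher and 0 other pathway genes lower. Of all 8449 features it called 0 lower and 0 higher. There 27 members had an unadjusted p under 0.05, against 38 in limma, and over all features 3060 did, against 4361 in limma. Pex5, not called, turned to -0.0902 with rows tested singly and lay between -0.029 and 0.19 with a mouse left out. Rxrb lost its call with rows tested singly (-0.16, limma adjusted p = 0.212). Slc25a20, not called, turned to 0.015 without centring and with exact 0 kept, to 0.00082 with scaled arrays, and lay between -0.044 and 0.024 with a mouse left out. For these values the cause was not tested. The same alternatives were run on the other pathway genes and markers, a step added after the data were seen. No paired analysis was possible because there is 1 group of samples, each set against the same control pool. Signal over background was not analysed here.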
